A study of Mus musculus with 48 samples.

Results

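The genes described here are 10 members of the matrix metalloproteinase system in mouse liver: the metalloproteinases Mmp2, Mmp8, Mmp9, Mmp12, Mmp13, Mmp14 and Mmp19, and the tissue inhibitors Timp1, Timp2 and Timp3. They were taken by gene symbol from the 29221 genes that the deposited count tables hold, and all 10 were found. RNA-seq was performed on whole livers of 48 mice in 10 groups. Every mouse, controls included, carried a floxed Pparg gene and was injected with an adeno-associated virus of serotype 8 after 16 weeks on its diet: AAV8-TBG-Cre in the mice labelled knockout, AAV8-TBG-null in the controls. The TBG promoter directs expression to hepatocytes, so Cre was not aimed at the other cells of the liver. Adult males received the HF (high fat) diet for 34 weeks, or 18 weeks of HF followed by 16 weeks of HFCF, in which cholesterol and fructose were added to the fat. Adult females received the same diets or the LF (low fat) diet for 34 weeks. Each of the 4 male groups (HF and HFCF, control and labelled knockout) held 6 livers, and each of the 6 female groups (LF, HF and HFCF, control and labelled knockout) held 4. Replicates are separate mice by the identifiers in the labels.

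Depth ran from 15338239 to 22072884 reads on genes per library. Pparg was not lower in any group labelled knockout than in its control group: its mean was 41.2 ± 14.1 against 34.3 ± 3.95 CPM (read counts scaled to a common library size; SD, n = 6) in HF males and 55.9 ± 6.05 against 32.0 ± 5.59 CPM (SD, n = 6) in HFCF males. The counts cover all exons of Pparg and not the floxed ones alone, so this value does not show whether Cre acted, and the groups are called labelled knockout throughout. In 4 libraries the median correlation with the other livers of the group lay over 0.01 below that of the group: male HFCF control replicate 1, female LF control replicate 1, female HF control replicate 1 and female HFCF labelled-knockout replicate 1. For HFCF against HF, the members called are given with and without the library concerned. For the other comparisons this was done for the results whose calls changed and for some further members. Female HF labelled-knockout replicate 3 came close to the cut, with a median correlation of 0.9703 beside 0.98 for its group. It was kept in the fits without the 4 libraries. Hepatocyte markers were high in every library (summed 41790 to 126200 CPM), and the adipose and pancreas markers found were near 0 (at most 0.134 and 1.18 CPM).

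Matrix metalloproteinases are zinc-dependent proteases that cut collagens, elastin and other proteins of the extracellular matrix. They are made as inactive precursors, and tissue inhibitors of metalloproteinases block them by binding in the active site. In liver, both sides of this system are known to be expressed mainly by stellate cells, macrophages, neutrophils and endothelium, and to take part in the build-up and breakdown of scar tissue. A change in whole-liver RNA cannot tell fewer cells of a type from less RNA per cell.

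The collagenases, which cut fibrillar collagen, are Mmp13 (chr9:7272514-7283331, plus strand, the main interstitial collagenase of the mouse) and Mmp8 (chr9:7558456-7568485, plus strand), stored in neutrophil granules. The gelatinases, which cut denatured collagen and basement membrane collagen, are Mmp2 (chr8:92827291-92853420, plus strand), a product of stellate cells and fibroblasts, and Mmp9 (chr2:164940780-164955850, plus strand), a product of neutrophils and macrophages. Mmp12 (chr9:7344381-7369499, plus strand) is the macrophage elastase. Mmp14 (chr14:54431612-54445364, plus strand) is anchored in the cell membrane and activates the Mmp2 precursor together with Timp2. Mmp19 (chr10:128790910-128800824, plus strand) is a secreted protease of basement membrane proteins. Of the inhibitors, Timp1 (chrX:20870166-20874735, plus strand) is inducible and widely used as a marker of fibrosis, Timp2 (chr11:118301069-118355740, minus strand) has a double role as inhibitor and as partner of Mmp14, and Timp3 (chr10:86300372-86349506, plus strand) binds the matrix and also inhibits ADAM proteases. All 10 are annotated as protein-coding, and the coordinates (GRCm38) are those of the deposited tables and equal those of GENCODE M21.

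The libraries do not keep strand, and 5 of the members overlap another gene. Timp1 lies within Syn1 on the opposite strand, and Syn1 had 4 to 62 reads a library against 0 to 144 for Timp1. Mmp19 overlaps Tmem198b, which had 70 to 163 reads against 642 to 1422 for Mmp19, and Gm47093, which had at most 7. Timp3 lies within Syn3, which had 7 to 42 reads against 61 to 1206, Timp2 overlaps Cep295nl, which had at most 4 reads, and Mmp12 overlaps Mmp1b on the opposite strand. The share of a read count that belongs to the partner was not tested. Mmp13, Mmp12 and Mmp8 are neighbours in a run of 9 protein-coding metalloproteinase genes on chromosome 9 between positions 7272514 and 7699585.

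Promoter sequences from RefSeq (GRCm38.p6, 250 bases before to 50 after a start site) were matched by symbol for 7 of the 10 members, and Mmp2, Mmp9 and Mmp19 are named only. The stretches before the start sites of Mmp12 (the second of its 2 listed starts, chr9:7347124-7347373), Mmp13 (chr9:7272264-7272513), Timp1 (chrX:20869916-20870165) and Mmp14 (chr14:54431348-54431597) are shown, all on the plus strand, because Mmp12, Mmp13 and Timp1 had diet differences of over 1 on the log2 scale in all 4 groups compared and Mmp14 in none. Capitals mark TGANTCA, the letters bound by the AP-1 family of transcription factors, and GGGCGG or its reverse complement CCGCCC, the letters bound by SP1.
Mmp12: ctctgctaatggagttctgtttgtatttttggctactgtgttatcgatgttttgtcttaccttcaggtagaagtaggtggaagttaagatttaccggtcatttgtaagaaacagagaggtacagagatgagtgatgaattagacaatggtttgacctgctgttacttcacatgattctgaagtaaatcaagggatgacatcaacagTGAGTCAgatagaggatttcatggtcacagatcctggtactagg
Mmp13: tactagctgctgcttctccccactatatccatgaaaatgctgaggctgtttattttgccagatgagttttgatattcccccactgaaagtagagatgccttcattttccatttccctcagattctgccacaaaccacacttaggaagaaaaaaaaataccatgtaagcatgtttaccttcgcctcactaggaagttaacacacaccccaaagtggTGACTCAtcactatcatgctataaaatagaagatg
Timp1: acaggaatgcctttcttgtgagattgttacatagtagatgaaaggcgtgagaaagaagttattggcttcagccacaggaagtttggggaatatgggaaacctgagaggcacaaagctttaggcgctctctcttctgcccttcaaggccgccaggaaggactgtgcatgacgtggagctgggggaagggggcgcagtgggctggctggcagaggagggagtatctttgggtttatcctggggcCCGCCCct
Mmp14: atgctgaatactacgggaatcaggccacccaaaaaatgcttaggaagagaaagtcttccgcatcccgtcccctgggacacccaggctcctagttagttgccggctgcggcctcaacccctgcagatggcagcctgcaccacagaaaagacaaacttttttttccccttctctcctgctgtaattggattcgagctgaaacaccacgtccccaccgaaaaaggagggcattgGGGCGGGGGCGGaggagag

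In the whole windows of the 7 members, TGANTCA (searched on both strands) was found once in the second Mmp12 window, with its first base at position -44 from the start site, and once in the Mmp13 window, at position -35. The first Mmp12 window and the Mmp8 window held none. The rule by diet differences did not choose between the 2 Mmp12 starts. The window shown lies inside the annotated gene, and the first window (chr9:7344147-7344446) spans the annotated gene start. It was present in 7.81% of 32851 RefSeq promoters of the same length. GGGCGG (both strands) was found in Mmp14, Timp1, Timp2 and Timp3, and in 35.7% of all promoters. The windows of Mmp12 and Mmp13 held 38.7% to 43.7% G and C, that of Mmp8 46.0%, those of Mmp14 and Timp1 56.0% and 55.0%, and those of Timp2 and Timp3 68.7% and 67.0%, beside a median of 52.7% over all promoters. These letters are a description of the windows and no evidence of binding.

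Levels are given as CPM scaled over the 48 libraries. Mmp14 and Mmp19 were present throughout, at 45.7 to 90.5 and 36.1 to 78.9 CPM over all livers. Mmp12 ran from 0.134 to 19.0 CPM (median 2.33) in the 28 livers on the LF or HF diet and from 15.8 to 76.6 CPM (median 37.6) in the 20 livers on HFCF. Timp1 ran from 0 to 2.99 CPM (median 0.406) on LF or HF and from 0.980 to 7.11 CPM (median 5.11) on HFCF. For Mmp13 the ranges were 0.0490 to 5.23 CPM (median 0.475) and 1.10 to 16.0 CPM (median 5.18). Mmp2, Timp2 and Timp3 had HFCF medians of 22.4, 61.3 and 38.3 CPM beside LF or HF medians of 7.23, 28.5 and 17.3 CPM, with ranges that overlapped. Mmp19 was the only member with a lower median on HFCF (50.2 against 62.2 CPM). Mmp8 was barely detected, with 0 to 54 reads a library and 271 reads in all, and Mmp9 was low, with 4 to 86 reads a library.

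**Figure D1:**
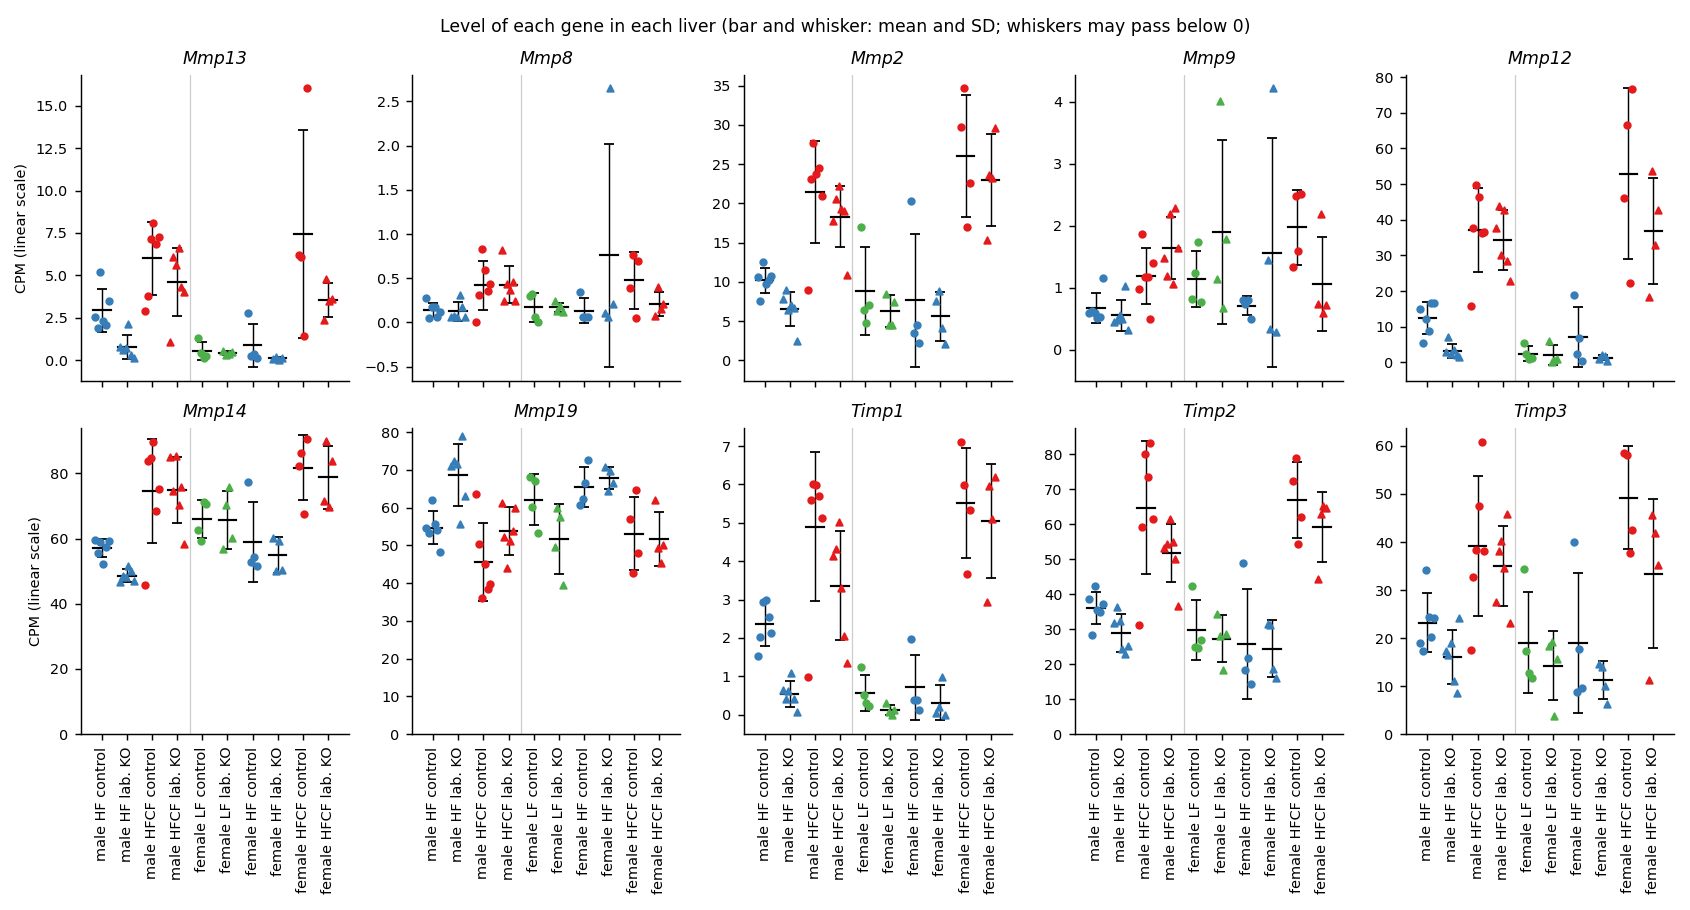
CPM (linear axis) of each of the 10 genes in each liver, by group; circles are controls and triangles labelled knockouts, colours are diets (green LF, blue HF, red HFCF), and bars with whiskers are means and SDs. Mmp12, Mmp13, Timp1 and Mmp2 stand higher in the HFCF groups than in the LF and HF groups, Mmp19 has a lower median there, and a single female HF labelled-knockout liver holds the highest Mmp8 value, 2.65 CPM.

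Per kb of gene length, Mmp19 and Mmp14 held the largest shares of the summed level of the 7 metalloproteinases and 3 inhibitors on the LF and HF diets, and Timp2 was the most abundant inhibitor in every group. Mmp19 took 33.7% to 49.2% of the summed level in the 6 LF and HF groups and 19.4% to 24.7% in the 4 HFCF groups. Mmp12 took 0.472% to 3.74% in the LF and HF groups and 7.67% to 9.52% in the HFCF groups, and Timp1 took 0.369% to 5.79% and 6.13% to 8.56%. The summed inhibitors divided by the summed metalloproteinases, in CPM per kb, gave 0.473 ± 0.0451 in male HF controls and 0.670 ± 0.192 in male HFCF controls (SD, n = 6). One male HFCF control, at 0.353, lay below every male HF control (lowest 0.412). Labelled-knockout males had 0.329 ± 0.0561 on HF and 0.527 ± 0.0853 on HFCF. In female controls the ratio was 0.324 ± 0.0894 on LF, 0.285 ± 0.143 on HF and 0.624 ± 0.0921 on HFCF (SD, n = 4), and in labelled-knockout females 0.318 ± 0.1101, 0.256 ± 0.0744 and 0.601 ± 0.129 in the same order. These are RNA ratios of the 10 members alone, described without a test. Other metalloproteinases are left out of the shares and ratios. Among them is Mmp15, with 58550 reads in all libraries, beside 56701 for Mmp14, the most-read member.

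**Figure D2:**
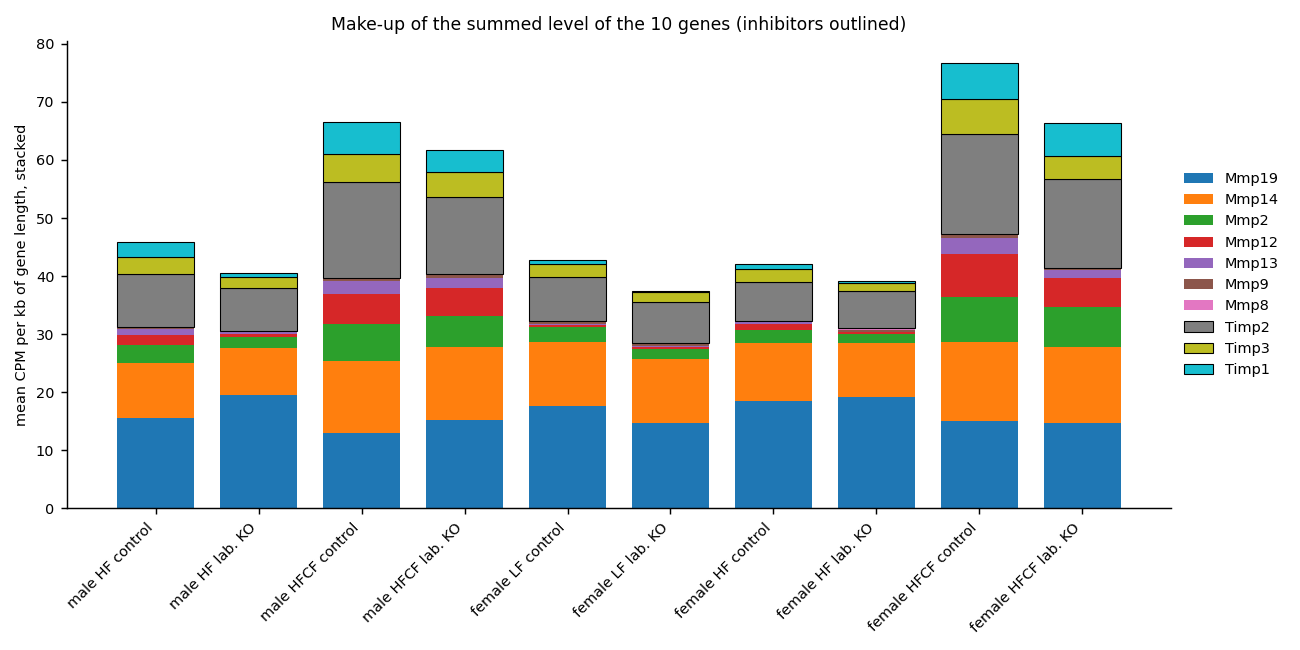
Mean level of the 10 genes per group in CPM per kb of gene length, stacked, with the inhibitors outlined. The summed level is higher in the 4 HFCF groups, where the shares of Mmp12, Mmp2, Timp1 and Timp2 are larger and that of Mmp19 is smaller.

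To ask how the metalloproteinase system differed once cholesterol and fructose joined the fat, HFCF livers were set against HF livers within each sex and virus group. Called means an adjusted p under 0.05 in edgeR's quasi-likelihood test, with Benjamini-Hochberg adjustment over all genes tested, and all adjusted p-values below are of this kind. In control males, 7 of 9 members tested were called, all higher on HFCF, where 22.3% of all 14475 genes tested were called. The median log2 fold change of the members tested was 0.87, that of all genes 0.01. In labelled-knockout males, 9 of 9 were called, 8 higher and Mmp19 lower, beside 41.7% of all genes. In control females, 8 of 9 were called, all higher, beside 30.8% of all genes, and in labelled-knockout females 8 of 9 were called, 7 higher and Mmp19 lower, beside 14.5%. In these 3 comparisons some members passed the filter on low counts only through the HFCF livers, where they were high, so their calls follow in part from the filter: Mmp9, Mmp13 and Timp1 in labelled-knockout males, and Mmp9, Mmp12, Mmp13 and Timp1 in both female groups. Of the members that did not depend on the HFCF livers alone, 6 of 6 were called in labelled-knockout males (5 higher), 4 of 5 in control females (all higher) and 5 of 5 in labelled-knockout females (4 higher). When 1 liver was omitted, 2 to 9 members were called in control females, with 2 to 4 after the omission of HF replicate 2, 3 or 4 or of HFCF replicate 1, 2 or 5. In labelled-knockout females 5 to 8 were called, with 5 after the omission of replicate 2 or 4 of either group. In control males, 4 members were called when HF replicate 2 or HFCF replicate 4 was omitted.

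The elastase Mmp12 had the steepest diet difference of the metalloproteinases in males. In male HF controls it ran from 5.57 to 16.7 CPM with a median of 13.4, and in male HFCF controls from 15.8 to 49.8 CPM with a median of 37.1. The groups overlapped by the HFCF control replicate 1 alone, and the log2 fold change was 1.62 (SE 0.27, adjusted p = 0.00175, n = 6), or 1.77 (adjusted p = 1.3e-05) without that library. In labelled-knockout males Mmp12 ran from 1.36 to 7.04 CPM (median 2.65) on HF and from 22.8 to 43.9 CPM (median 33.9) on HFCF. These groups did not overlap, and the log2 fold change was 3.44 (SE 0.29, adjusted p = 9.03e-07, n = 6).

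In female controls Mmp12 was at 19.0, 2.23, 6.79 and 0.368 CPM on HF and at 46.0, 66.5, 22.4 and 76.6 CPM on HFCF. All HFCF livers were above all HF livers, the nearest being the HF replicate 1, and Mmp12 rose by a log2 fold change of 2.89 (SE 0.78, adjusted p = 0.0225, n = 4), or 4.09 (adjusted p = 0.000851) without that library. The call was lost when HF replicate 2 or 3, or HFCF replicate 2 or 5, was omitted. In labelled-knockout females the 4 HF livers had 0.915, 2.17, 1.77 and 0.492 CPM and the 4 HFCF livers 18.5, 53.6, 32.9 and 42.6 CPM. Mmp12 rose there by a log2 fold change of 4.78 (SE 0.44, adjusted p = 0.00108, n = 4), in every fit that omitted 1 liver. In both female comparisons Mmp12 passed the filter on low counts only through the HFCF livers, where it was high.

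The collagenase Mmp13 followed the same order at a lower level. In males it had a median of 2.44 CPM (1.92 to 5.23) in HF controls and 7.01 CPM (2.88 to 8.07) in HFCF controls, and rose by a log2 fold change of 1.07 (SE 0.29, adjusted p = 0.0162). In labelled-knockout males the medians were 0.681 CPM (0.130 to 2.15) and 4.96 CPM (1.10 to 6.60), and the log2 fold change was 2.58 (SE 0.48, adjusted p = 0.00057). The ranges overlapped in both. In labelled-knockout males Mmp13 passed the filter on low counts only through the HFCF livers.

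Female controls had Mmp13 at 2.77, 0.248, 0.374 and 0.123 CPM on HF and 6.22, 6.08, 1.44 and 16.0 CPM on HFCF, a log2 fold change of 3.05 (SE 0.90, adjusted p = 0.0311). HF replicate 1 was the high HF liver. The call held in 2 of 8 fits that omitted 1 liver, those without HF replicate 1 or HFCF replicate 3. In labelled-knockout females Mmp13 was at 0.108, 0.198, 0.0490 and 0.141 CPM on HF, 8 reads over the 4 livers, and at 2.35, 4.77, 3.52 and 3.61 CPM on HFCF. The log2 fold change was 4.84 (SE 0.42, adjusted p = 0.00108), a fitted size that depends on those few HF reads. Mmp13 entered both female tests only through the HFCF livers. The collagenase Mmp8 did not pass the filter on low counts in any of the comparisons of 2 groups.

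Of the gelatinases, Mmp2 rose in all 4 groups. Male HF controls had 7.58 to 12.5 CPM (median 10.4) and male HFCF controls 8.94 to 27.6 CPM (median 23.4), a log2 fold change of 1.11 (SE 0.21, adjusted p = 0.00263). The HFCF control replicate 1, at 8.94 CPM, was the only HFCF liver within the HF range. In labelled-knockout males the ranges, 2.40 to 8.95 and 10.9 to 22.2 CPM, did not overlap, and the log2 fold change was 1.50 (SE 0.23, adjusted p = 0.000103). In female controls Mmp2 was at 20.3, 3.53, 4.49 and 2.27 CPM on HF and at 29.7, 34.6, 17.0 and 22.6 CPM on HFCF, and the log2 fold change was 1.76 (SE 0.59, adjusted p = 0.0482), or 2.93 (adjusted p = 0.000108) without HF replicate 1. This call too was lost in the fits that omitted any liver but HF replicate 1 or HFCF replicate 3. Labelled-knockout females had 7.59, 8.82, 4.07 and 2.04 CPM on HF and 15.4, 23.6, 23.2 and 29.7 CPM on HFCF, a log2 fold change of 2.04 (SE 0.38, adjusted p = 0.00833).

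Mmp9 was called in labelled-knockout males, where it ran from 0.325 to 1.03 CPM on HF and from 1.06 to 2.29 CPM on HFCF with a log2 fold change of 1.55 (SE 0.30, adjusted p = 0.000742). It was also called in female controls, at 0.808, 0.743, 0.810 and 0.490 CPM on HF and 1.33, 2.48, 1.60 and 2.51 CPM on HFCF (log2 fold change 1.47, SE 0.31, adjusted p = 0.0104). In both of these comparisons Mmp9 passed the filter on low counts only through the HFCF livers, where it was high. With all female groups in 1 fit, the adjusted p in female controls was 0.095. In control males the log2 fold change was 0.84 (adjusted p = 0.0586), and 0.89 (adjusted p = 0.0369) without HFCF control replicate 1; it was also called without HF control replicate 6 or HFCF control replicate 5. Labelled-knockout females gave -0.59 (SE 0.78, adjusted p = 0.656), with 1.45, 0.329, 4.22 and 0.281 CPM on HF and 0.736, 2.19, 0.594 and 0.722 CPM on HFCF. HF replicate 3 of this group was the liver with the highest Mmp9 and Mmp8 levels of the 48.

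Mmp14 differed less between the diets than the other called metalloproteinases that rose. Its range was 52.1 to 59.4 CPM in male HF controls and 45.7 to 89.5 CPM in male HFCF controls, with a log2 fold change of 0.42 (SE 0.13, adjusted p = 0.0283), a call lost without HF replicate 2 or 4 or HFCF replicate 2, 3, 4 or 6. In labelled-knockout males the ranges of 46.7 to 51.5 and 58.2 to 85.3 CPM did not overlap, and it rose by 0.64 (log2, SE 0.08, adjusted p = 2.75e-05). In females the log2 fold change was 0.48 (SE 0.15, adjusted p = 0.0361) in controls and 0.52 (SE 0.12, adjusted p = 0.0191) in labelled knockouts. The call in control females held only without HF replicate 1 or HFCF replicate 3 when 1 liver was omitted, and that in labelled knockouts was lost without replicate 2 or 4 of either diet.

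Mmp19 went the other way. It fell by 0.34 on the log2 scale (SE 0.09, adjusted p = 0.0067) in labelled-knockout males, from 55.6 to 78.9 CPM on HF (median 71.2) to 43.9 to 61.4 CPM on HFCF (median 53.0). In labelled-knockout females it fell by 0.39 (log2, SE 0.10, adjusted p = 0.0329), from 70.7, 64.5, 69.7 and 66.5 CPM to 62.0, 49.4, 45.2 and 50.0 CPM, without overlap, and this call held in 1 of 8 fits that omitted 1 liver, the one without HFCF replicate 1. The controls gave log2 fold changes of -0.24 (SE 0.11, adjusted p = 0.137) in males and -0.29 (SE 0.13, adjusted p = 0.101) in females. Without male HFCF control replicate 1, which had the highest Mmp19 level of its group at 63.6 CPM, the value in control males was -0.35 (adjusted p = 0.00366). In control females Mmp19 was called without HFCF replicate 3.

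The inhibitors were called in all 4 diet comparisons. Timp1 had the largest differences: male HF controls ran from 1.53 to 2.99 CPM (median 2.35) and male HFCF controls from 0.980 to 6.01 CPM (median 5.65), a log2 fold change of 1.09 (SE 0.32, adjusted p = 0.0235). The HFCF control replicate 1 was below every HF control, all other HFCF controls were above them, and without it the value was 1.30 (adjusted p = 1.88e-05). The call in control males was lost when HF replicate 2 or HFCF replicate 3, 4 or 5 was omitted. In labelled-knockout males Timp1 rose from 0.0649 to 1.07 CPM to 1.33 to 5.03 CPM without overlap (log2 fold change 2.66, SE 0.41, adjusted p = 0.000117). It passed the filter on low counts there only through the HFCF livers.

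Female controls had Timp1 at 1.96, 0.372, 0.374 and 0.123 CPM on HF and 7.11, 5.97, 3.66 and 5.34 CPM on HFCF. The groups did not overlap, and the log2 fold change was 2.94 (SE 0.60, adjusted p = 0.00917), called in every fit that omitted 1 liver. In labelled-knockout females, 0.0538, 0.198, 0.981 and 0 CPM on HF stood against 2.94, 5.97, 5.10 and 6.19 CPM on HFCF, a log2 fold change of 3.90 (SE 0.71, adjusted p = 0.00782). One HF liver had no Timp1 read, and 20 of the 24 HF reads were those of replicate 3. Without that liver the log2 fold change was 5.82 (adjusted p = 0.00105), so the fitted size depends on few reads, and Timp1 too entered the female tests only through the HFCF livers.

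Timp2 rose by 0.87 (log2, SE 0.18, adjusted p = 0.00447) in control males, from a median of 36.3 CPM to 67.5 CPM, and by 0.86 (SE 0.13, adjusted p = 9.85e-05) in labelled-knockout males, from 28.6 to 53.8 CPM. The female values were 1.38 (SE 0.34, adjusted p = 0.0169) in controls and 1.29 (SE 0.23, adjusted p = 0.0072) in labelled knockouts, with no overlap in either, and the call in control females was lost without HF replicate 3. Timp3 rose by 0.79 (SE 0.24, adjusted p = 0.0267) and 1.14 (SE 0.21, adjusted p = 0.000632) in control and labelled-knockout males, and the call in control males was lost without HF replicate 1, 2 or 5 or HFCF replicate 4 or 5. In females it rose by 1.37 (SE 0.44, adjusted p = 0.0396) in controls and 1.59 (SE 0.40, adjusted p = 0.0274) in labelled knockouts. Of the fits that omitted 1 liver, the call in control females held only in those without HF replicate 1 or HFCF replicate 3, and that in labelled knockouts was lost without HF replicate 2 or 4 or HFCF replicate 2, 3 or 4. Mmp2, Mmp14, Timp2 and Timp3, which passed the filter in HF livers as well, were called higher on HFCF in each sex and virus group.

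The libraries that stand apart moved the sizes of these differences. The counts of members called without them stand without the share of all genes called in those fits, which is not given. Without male HFCF control replicate 1, the log2 fold changes in control males were 1.27 for Mmp2, 1.21 for Mmp13 (adjusted p = 0.00125), 0.52 for Mmp14, 1.02 for Timp2 and 0.94 for Timp3 (adjusted p = 0.000535), and 9 of 9 members were called, Mmp19 among them as the lower one. Without female HF control replicate 1, those in control females were 4.24 for Timp1, 4.88 for Mmp13 (adjusted p = 0.0019), 1.54 for Mmp9 (adjusted p = 0.00619), 0.64 for Mmp14 (adjusted p = 0.00103), 1.90 for Timp2 and 2.05 for Timp3 (adjusted p = 0.000288). Each of these values was larger than with that liver. In the remaining HF controls Mmp13 and Timp1 each had 2 to 6 reads a liver, so their fitted sizes depend on few reads. Without female HFCF labelled-knockout replicate 1, the same 8 members were called in labelled-knockout females, with 5.005 for Mmp12, 5.01 for Mmp13, 4.08 for Timp1, 2.20 for Mmp2, 0.58 for Mmp14, 1.42 for Timp2, 1.88 for Timp3 and -0.47 for Mmp19.

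**Figure D3:**
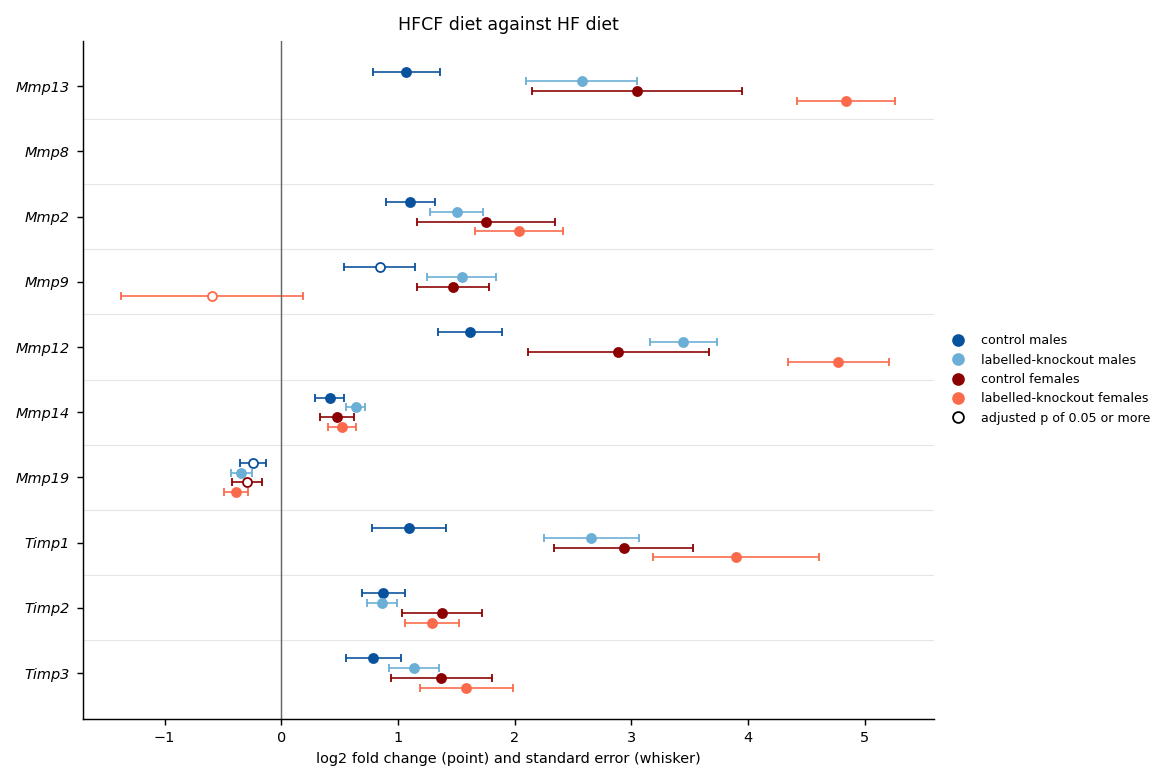
Log2 fold change (point) with standard error (whisker) of each gene for the HFCF diet against the HF diet in 4 groups; open points did not pass the adjusted p threshold, and Mmp8 was not tested. In labelled-knockout males and in both female groups Mmp12, Mmp13 and Timp1 lie farthest to the right, between 2.58 and 4.84, and Mmp19 lies to the left of 0 in all 4 groups.

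Against the LF diet in females, 7 of 9 members were called in controls, all higher on HFCF, where 35.2% of all genes were called. Mmp12 had the largest value, 4.42 (log2, SE 0.54, adjusted p = 0.000598), with 5.48, 2.23, 0.839 and 1.26 CPM in the LF controls, and all HFCF controls were above them. Mmp13 rose by 3.76 (SE 0.77, adjusted p = 0.00505), Timp1 by 3.25 (SE 0.44, adjusted p = 0.000879) and Mmp2 by 1.54 (SE 0.37, adjusted p = 0.0101). Mmp14 had a log2 fold change of 0.30 (adjusted p = 0.0437), which was called in 2 of 8 fits that omitted 1 liver, those without LF or HFCF replicate 3. Without LF control replicate 1, Mmp14 gave 0.28 (adjusted p = 0.0713), Mmp12 5.21, Mmp13 4.70 (adjusted p = 0.00219), Timp1 3.99 and Mmp2 2.10. In the remaining LF controls Mmp13 had 2 to 7 reads a liver and Timp1 4 to 8, so these 2 sizes depend on few reads. In labelled-knockout females 5 of 9 were called, all higher, beside 12% of all genes: Timp1, Mmp12, Mmp13, Mmp2 and Timp2. Timp3, at 1.29 (SE 0.47, adjusted p = 0.0955), was called without HFCF replicate 1 (1.53, adjusted p = 0.0163). Timp1 was at 0.300, 0.0668, 0 and 0.123 CPM in the LF livers, 8 reads over the group, so its fitted log2 fold change of 5.31 (SE 0.54, adjusted p = 0.000938) depends on few reads. Mmp13 and Timp1 passed the filter only through the HFCF livers in both of these comparisons, and Mmp12 in that of labelled knockouts. Of the members that did not depend on the HFCF livers alone, 5 of 7 were called in controls and 2 of 6, Mmp2 and Timp2, in labelled knockouts. The HFCF against HF and HFCF against LF comparisons share their HFCF livers.

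The HF diet alone was compared with LF in females. In control females 0 of 7 members tested were called, and 0 had an unadjusted p under 0.05, beside 0.696% of all 14216 genes called. Without LF and HF control replicate 1, which stand apart, no member was called either. The log2 fold changes were then -0.81 for Mmp2 (adjusted p = 0.183), -0.48 for Timp2 (adjusted p = 0.15) and 1.14 for Mmp12 (adjusted p = 0.493). With them, Mmp2 and Timp2 each had -0.18. In labelled-knockout females 0 of 7 were called and 1 had an unadjusted p under 0.05, Mmp19 (log2 fold change 0.40, SE 0.13, adjusted p = 0.196), beside 0.155% of all genes. The DESeq2 Wald test also called 0 members in either. Mmp12 was at 1.55 (SE 0.93) in controls and -0.53 (SE 0.87) in labelled knockouts. These standard errors leave room for a large rise in controls and for large differences in both directions in labelled knockouts.

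Mice labelled knockout were compared with controls on each diet, to ask how the genes differed after Cre virus. In HF males, 6 of 8 members tested were called, 5 lower and 1 higher, beside 18.5% of all 14041 genes tested. Mmp13 and Timp1 passed the filter only through the controls, where they were high, and of the other 6 members 4 were called, 3 lower and 1 higher. Timp1 was at 1.53 to 2.99 CPM (median 2.35) in the controls and at 0.0649 to 1.07 CPM (median 0.517) in the labelled knockouts. The groups did not overlap, and Timp1 fell by 2.13 on the log2 scale (SE 0.34, adjusted p = 0.000525, n = 6).

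Mmp12 fell by 1.97 (log2, SE 0.34, adjusted p = 0.000792) in the same comparison, with 5.57 to 16.7 CPM (median 13.4) in controls and 1.36 to 7.04 CPM (median 2.65) in labelled knockouts, an overlap of 1 liver on each side. Mmp13 fell by 1.91 (SE 0.43, adjusted p = 0.00626), with medians of 2.44 and 0.681 CPM, and its labelled-knockout replicate 4, at 2.15 CPM, lay within the control range. Mmp14 fell by 0.24 (SE 0.05, adjusted p = 0.00391), from 52.1 to 59.4 CPM to 46.7 to 51.5 CPM without overlap. With all male groups in 1 fit, Mmp14 had an adjusted p of 0.163 and Mmp2 one of 0.0656. Mmp2 fell by 0.65 (SE 0.21, adjusted p = 0.0419), a call that held in 4 of 12 fits that omitted 1 liver, those without control replicate 2 or labelled-knockout replicate 1, 2 or 6. Mmp19 rose by 0.32 (SE 0.08, adjusted p = 0.0117), with medians of 54.4 and 71.2 CPM.

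Timp2, at -0.33 (SE 0.12, adjusted p = 0.0569), and Timp3, at -0.54 (SE 0.21, adjusted p = 0.0955), did not pass in HF males. Timp2 was called without control replicate 2 or labelled-knockout replicate 2, and Timp3 without labelled-knockout replicate 6. Mmp12, Mmp13, Mmp14, Mmp19 and Timp1 were called in all 12 fits that omitted 1 liver. Macrophage markers fell in 5 of 8 and stellate cell and fibroblast markers in 5 of 8 in this comparison, and hepatocyte markers rose in 4 of 6. The macrophage sum was 154.8 to 209.4 CPM in controls and 111.0 to 172.1 CPM in labelled knockouts, and the stellate sum 429.5 to 625.1 and 323.0 to 449.9 CPM, with every marker of both lists detected in every library. Kupffer cell markers rose in 1 of 6, with sums of 147.4 to 323.4 CPM in controls and 248.8 to 425.2 CPM in labelled knockouts, and neutrophil markers were called in 0 of 3 tested, 1 with an unadjusted p under 0.05. Red cell markers rose in 3 of 3 (sums 152.4 to 221.0 and 154.0 to 719.0 CPM). The sinusoidal endothelium sum was 222.5 to 320.8 CPM in controls and 167.2 to 285.4 CPM in labelled knockouts. The lymphocyte sum was 5.085 to 8.264 and 3.616 to 7.207 CPM in the same order. Of all genes tested, 18.5% were called in this comparison. The part of these markers in the members' differences was not tested.

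On the other diets no member was called. In HFCF males 0 of 9 members were called and 0 had an unadjusted p under 0.05, beside 2.21% of all 14685 genes called. Without HFCF control replicate 1, 2 members were called: Mmp19 at 0.35 (log2, adjusted p = 0.0388) and Timp2 at -0.47 (adjusted p = 0.0262). The share of all genes called without that library is not given, so this count cannot be set beside the 2.21%. In LF females 0 of 7 were called, beside 0% of all 14285 genes, and 0 had a p under 0.05 before adjustment. In HF females 0 of 7 were called, beside 0% of all 14128 genes, and 1 had an unadjusted p under 0.05, Mmp12, at -2.40 (SE 0.93, adjusted p = 0.605), or -1.20 (adjusted p = 0.67) without HF control replicate 1. In HFCF females 0 of 9 were called and 0 had an unadjusted p under 0.05, beside 0.0534% of all 14980 genes. The DESeq2 Wald test called 0 members in these 4 comparisons as well.

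**Figure D4:**
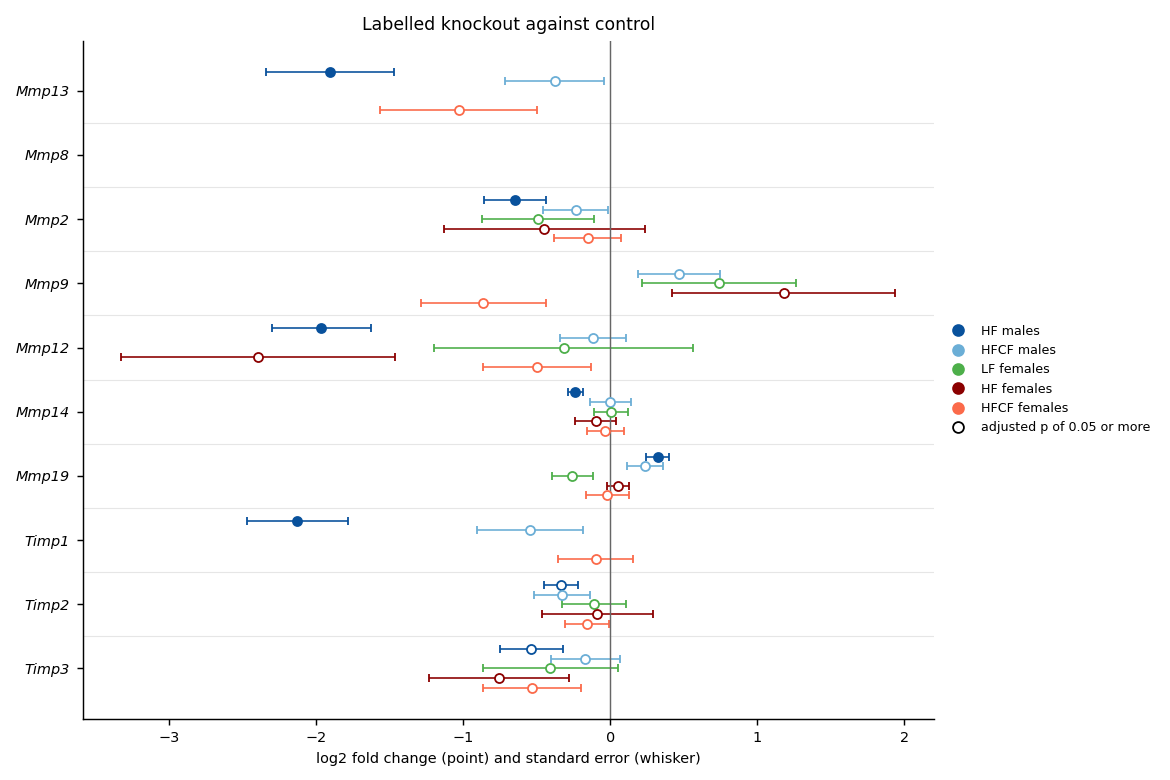
Log2 fold change (point) with standard error (whisker) of each gene for labelled knockout against control in the 5 sex and diet groups; open points did not pass the adjusted p threshold, and genes that did not pass the filter on low counts have no point. The filled points are those of HF males, where Timp1, Mmp12 and Mmp13 lie between -2.13 and -1.91.

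Whether these differences themselves differed between groups was tested as interactions. In males, the HFCF against HF difference was larger in labelled knockouts than in controls for 1 of 9 members, Mmp12, by 1.83 on the log2 scale (SE 0.43, adjusted p = 0.0289), beside 1.56% of all 15096 genes called. The adjusted p was 0.324 with all 10 groups in 1 fit, and the call was lost when male HF labelled-knockout replicate 3 or 5 was omitted. Timp1, at 1.57 (SE 0.55, adjusted p = 0.129), and Mmp13, at 1.51 (SE 0.58, adjusted p = 0.176), had unadjusted p-values under 0.05 but did not pass. In females, 0 of 9 members differed in this way in edgeR, beside 0% of all 15445 genes, and 1 had an unadjusted p under 0.05: Mmp9, at -2.05 (SE 0.92, adjusted p = 0.958).

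Between the sexes, the diet difference in controls was called for 0 of 10 members, beside 0.00646% of all 15491 genes, and 2 had an unadjusted p under 0.05: Timp1, at -1.84 (male minus female, SE 0.66, adjusted p = 0.223), and Mmp13, at -1.98 (SE 0.85, adjusted p = 0.266). This result rests on libraries that stand apart. Without male HFCF control replicate 1 and female HF control replicate 1, 6 members were called, all with a smaller diet difference in males: Timp1 at -2.92 (adjusted p = 0.000337), Mmp2 at -1.65 (adjusted p = 0.00157), Timp2 at -0.87 (adjusted p = 0.0103), Mmp13 at -3.66 (adjusted p = 0.0141), Mmp12 at -2.31 (adjusted p = 0.0223) and Timp3 at -1.09 (adjusted p = 0.0371). Without female HF control replicate 1 alone, 5 were called. The shares of all genes called in these fits are not given, so these counts cannot be set beside one. In the remaining female HF controls Mmp13 and Timp1 each had 2 to 6 reads a liver, so their fitted sizes depend on few reads. In labelled knockouts 0 of 9 were called, beside 0.013% of all 15400 genes, and 3 had an unadjusted p under 0.05: Mmp9, at 2.16 (SE 0.79, adjusted p = 0.296), Mmp12, at -1.31 (SE 0.56, adjusted p = 0.368), and Mmp13, at -2.25 (SE 0.89, adjusted p = 0.338). DESeq2 called 0 members in the female interaction and in both interactions with sex.

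Markers of several cell types moved with the diet differences, and those of others did so less evenly. Of all genes tested, 22.3% were called in control males, 41.7% in labelled-knockout males, 30.8% in control females and 14.5% in labelled-knockout females. On HFCF against HF, macrophage markers rose in 8 of 8 in control males, labelled-knockout males and control females and in 6 of 8 in labelled-knockout females. Their summed level was 225.9 to 655.1 CPM in male HFCF controls and 359.9 to 569.1 CPM in male HFCF labelled knockouts. In females it was 84.7 to 229.3 CPM in HF controls, 480.3 to 711.2 CPM in HFCF controls, 94.4 to 313.6 CPM in HF labelled knockouts and 354.7 to 565.6 CPM in HFCF labelled knockouts. Stellate cell and fibroblast markers rose in 6, 7, 2 and 7 of 8 in the same order of groups. The stellate sums were 477.3 to 873.6 CPM in male HFCF controls, 493.0 to 789.2 CPM in male HFCF labelled knockouts, 225.6 to 702.6 and 648.1 to 987.0 CPM in female HF and HFCF controls, and 249.2 to 387.1 and 540.8 to 813.8 CPM in female HF and HFCF labelled knockouts. Bile duct markers rose in 4 of 4 in each, and hepatocyte markers fell in 3, 6, 5 and 0 of 6. Kupffer cell markers, those of the resident macrophages, rose in 1, 2, 1 and 0 of 6 and fell in 0, 3, 1 and 1. Their sum was 226.0 to 420.4 CPM in female HF controls and 466.0 to 590.8 CPM in female HFCF controls. Of the 8 neutrophil markers 3 were tested (4 in labelled-knockout females), and 1, 3, 1 and 0 rose. The neutrophil sum had medians of 8.73 and 17.2 CPM in female HF and HFCF controls. Endothelium sums were 222.5 to 320.8 CPM on HF and 210.5 to 319.4 CPM on HFCF in control males. In labelled-knockout males they were 167.2 to 285.4 and 242.9 to 299.7 CPM. Female controls had 173.9 to 245.1 and 271.8 to 316.2 CPM, and female labelled knockouts 134.9 to 237.0 and 252.1 to 316.9 CPM. Lymphocyte medians were 7.595 and 7.275, 5.782 and 7.324, 5.845 and 6.161, and 7.972 and 7.022 CPM in the same order. Calls in both lists are not given.

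Male HFCF control replicate 1 had the lowest macrophage sum (225.9 CPM), the lowest stellate sum (477.3 CPM) and the lowest Mmp12, Mmp2, Timp1, Timp2 and Timp3 of its group. Female HF control replicate 1 had the highest of each in its group. This pairing did not hold in every liver: male HFCF labelled-knockout replicate 1 had the highest macrophage sum of its group, 569.1 CPM, and the lowest Mmp13, 1.10 CPM. The part of the cell type markers in the members' diet differences was not tested.

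**Figure D5:**
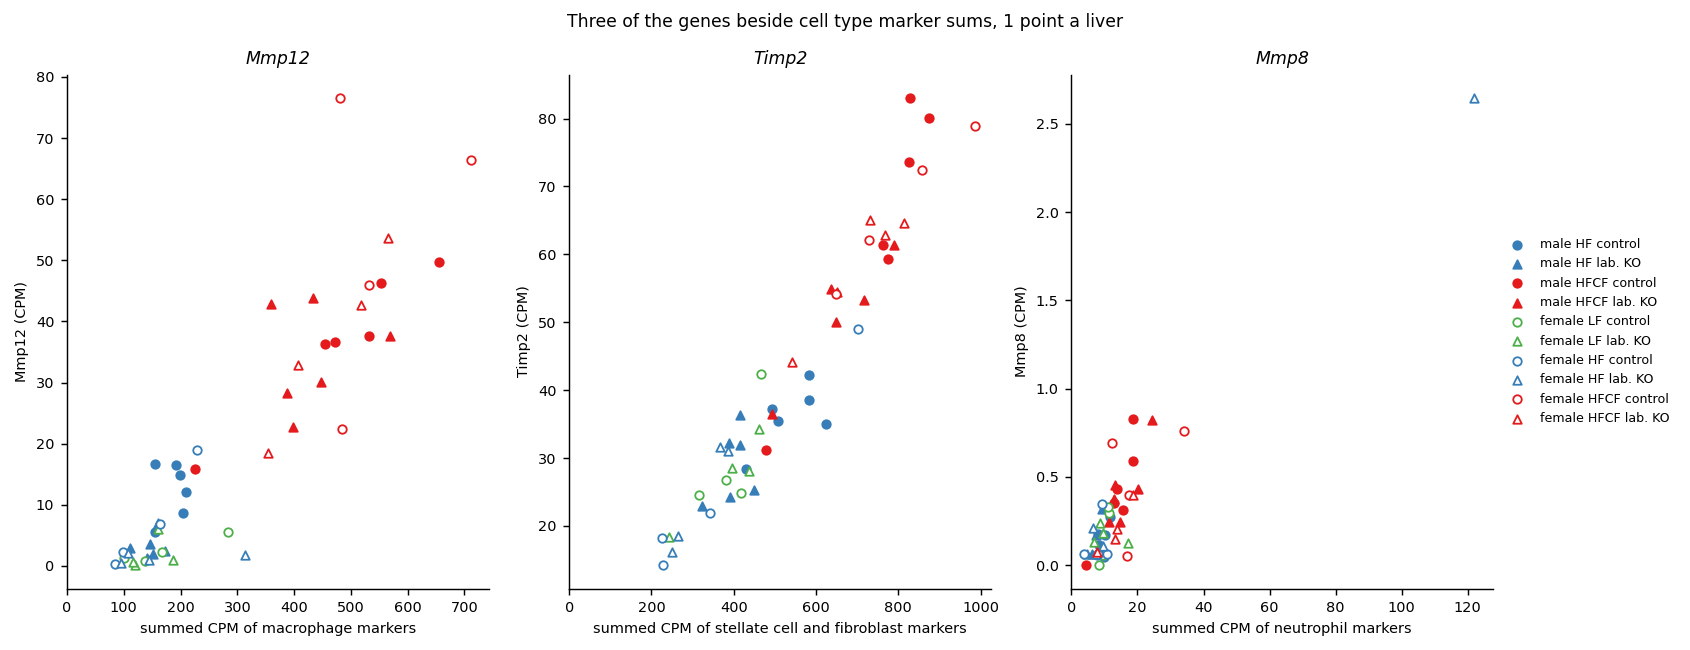
CPM of Mmp12, Timp2 and Mmp8 in each of the 48 livers against the summed CPM of macrophage, stellate cell and fibroblast, and neutrophil markers; filled symbols are males and open symbols females, circles controls and triangles labelled knockouts, and colours diets. HFCF livers lie high on both axes for Mmp12 and Timp2, and 1 female HF labelled-knockout liver stands alone at a neutrophil sum of 121.8 CPM and 2.65 CPM of Mmp8.

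The neutrophil-linked members Mmp8 and Mmp9 were high together in that liver, female HF labelled-knockout replicate 3. It had 54 of the 60 Mmp8 reads of its group (2.65 CPM, against 0.0658 to 0.211 CPM in the others) and 4.22 CPM of Mmp9, against 0.281 to 1.45 CPM. Its neutrophil sum of 121.8 CPM compared with 6.61 to 9.42 CPM in its group and at most 34.0 CPM in any other library. The neutrophil list was weakly detected, with Ly6g at 0 in 38 of 48 libraries and Mpo at 0 in 16. The same liver had the highest macrophage and Kupffer cell sums of its group, at 313.6 and 626.5 CPM, while its Mmp12, 1.77 CPM, and Mmp13, 0.0490 CPM, were not high. In female LF labelled-knockout replicate 2, Mmp9 was nearly as high, at 4.01 CPM, with 0.134 CPM of Mmp8. The neutrophil sums of that LF group were at most 17.0 CPM.

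Other genes of matrix turnover, from lists chosen with earlier results known, were counted in the same tests. Among ADAM and ADAMTS proteases, 9 of 15 rose on HFCF in control males, 13 in labelled-knockout males, 14 in control females and 7 in labelled-knockout females, with none lower. Matrix substrates such as collagens and elastin rose in 11, 11, 8 and 11 of 12, and 1 fell in each group but control females. Lysyl oxidases, which cross-link collagen and elastin, rose in 4, 4, 4 and 2 of 5. Lox itself rose by 2.17 (log2, SE 0.33, adjusted p = 0.00112) in control males and by 3.24 (SE 0.61, adjusted p = 0.00767) in control females. Of the plasminogen system, which activates several metalloproteinase precursors, 4 of 7 rose and 2 fell in control males, and Plat, the tissue plasminogen activator, had the largest rise (1.51, SE 0.28, adjusted p = 0.00259). Cathepsins rose in 4, 3, 3 and 3 of 5, and inducers of metalloproteinases in 3, 7, 5 and 2 of 8. Of all genes tested, 22.3%, 41.7%, 30.8% and 14.5% were called in these comparisons, in the same order. The list counts were not tested against these shares.

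In HF males labelled knockout, where 18.5% of all genes tested were called, 10 of 12 matrix substrates fell, with Col1a1, the main fibrillar collagen chain, at -1.23 (log2, SE 0.21, adjusted p = 0.000725) and Col3a1 at -1.05 (SE 0.15, adjusted p = 0.000207). Col1a1 is also in the stellate list. The summed level of the 12 substrates was not lower: 2371 to 2722 CPM (median 2607) in controls and 2238 to 3063 CPM (median 2759) in labelled knockouts. Fn1, with 1708177 reads in all libraries, was the most-read gene of that sum. Cathepsin sums were 1511 to 1843 and 1448 to 1901 CPM, and inducer sums 217.9 to 339.3 and 132.4 to 238.4 CPM, in the same order. ADAM and ADAMTS proteases fell in 9 of 15, among them Adamts4 at -1.20 (SE 0.27, adjusted p = 0.00617), and lysyl oxidases in 2 of 5. Genes of the plasminogen system, named after their values were seen, moved both ways: Plg, plasminogen itself, rose by 0.45 (log2, adjusted p = 0.00361) and Serpinf2, the plasmin inhibitor, by 0.62 (adjusted p = 8.48e-05), while Plat fell by 0.91 (adjusted p = 0.0189) and Plau, the urokinase activator, by 0.74 (adjusted p = 0.0394). In HFCF males the 7 lists held 1 called gene, Adamts15, at -0.65 (log2, SE 0.15, adjusted p = 0.0306).

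On chromosome 9, 2 neighbours of Mmp13, Mmp12 and Mmp8 were also read mostly on HFCF. Mmp7, matrilysin, had 2223 reads in all, 1900 of them in the 20 HFCF livers, and rose by 3.31 (log2, SE 0.52, adjusted p = 0.00141) in control males and by 3.08 (SE 0.48, adjusted p = 0.000135) in labelled-knockout males. In control females it had a log2 fold change of 1.83 (SE 0.78, adjusted p = 0.0984). Mmp27, named for its place in the run and not for its size of change, had 2359 reads, 1515 in HFCF livers, and rose by 0.96 (SE 0.25, adjusted p = 0.0147) and 1.57 (SE 0.24, adjusted p = 0.000117) in the same male groups. The female values of Mmp27 and the value of Mmp7 in labelled-knockout females are not given. The reads pooled over HFCF livers and over the others mix the sexes in unequal parts. Mmp3 and Mmp10, with 62 and 2 reads in all libraries, were barely read.

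Over the 10 group means of log2 CPM, the genes most alike to each member were named by Pearson's correlation, as a description of points that share their libraries and diets. For Mmp2 they were Ppic (r = 0.998), Loxl1 (0.997) and Htra1 (0.996), and for Timp2 Olfml3 (0.996), Lhfp (0.996) and Mrc2 (0.996). Mmp12 was closest to Aurkb (0.993), Cxcl14 (0.991) and Itgbl1 (0.990), and Mmp13 to Tnfrsf12a, Pvr and Ralgds (0.992 each). For Timp1 the closest gene of all was Mmp12 (0.988), followed by Col8a1 (0.986) and Ccdc80 (0.985). Timp3 was closest to Hpca (0.992), Adgra2 (0.988) and Wnt5a (0.986), and Mmp14 to Trim46 (0.983), Slc4a3 (0.979) and Dmpk (0.972). The lowest leading values were those of Mmp19 with P2ry4 (0.962), Mmp9 with Magohb (0.925) and Mmp8 with Spn (0.914). Among the members, Mmp2 and Timp2 had r = 0.993, and Mmp19 had a negative r with each of the other 9.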

How the data were processed

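Read counts were deposited as whole numbers per gene and library in 11 tables, 1 per comparison of the authors, with no normalization per the file headers. The tables were joined by gene identifier into 29221 genes by 48 libraries, and 0 of 1341082 repeated values differed. The submitters' processing notes name STAR 2.6.1, HTSeq 0.6.1, DESeq2 (version given as 2) and the builds GRCm38 and mm10, without saying which step each served. Libraries were not strand specific, per the labels' protocols. The tables also hold a signal per library that the authors normalised (the count divided by 1 factor per library), FPKM values that the authors computed, and the authors' log2 fold changes and p-values per comparison. These were used only to check what the count columns hold, and 0 columns of per-sample values were left without a sample.

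CPM used TMM factors over the 48 libraries. Each of 13 comparisons of 2 groups and 4 interactions was fitted to its own groups with edgeR 4.0.16 in R 4.3.3 (filterByExpr, TMM, quasi-likelihood F test, Benjamini-Hochberg adjustment over all genes tested), and called means an adjusted p under 0.05. The standard error is the absolute log2 fold change divided by the square root of F. The procedure was tested on simulated counts. Precision is limited by 15338239 to 22072884 reads a library and 4 or 6 livers a group. Alternatives were DESeq2 1.42.0 size factors, its Wald test, no filter, all groups of the sex (for interactions all 10 groups) in 1 fit, the replicate number as a block, each library left out in turn, and, chosen after seeing the data, the fits without the 4 libraries that stand apart. Genes most alike were the 3 with the highest Pearson correlation over 10 group means of log2 CPM (prior count 2), with a mean of at least 1 CPM and no predicted gene. Up to 6 called genes of the 7 matrix lists were to be named in a comparison, by size. The members and lists were chosen with earlier results of these data known. One gene of these lists is not reported here.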

Additional observations from a re-analysis of the deposited data

Results flagged for a closer look

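In 16 of the 100 combinations of gene and group, the highest or lowest liver stood apart from the rest by Dixon's criterion at the 95% level (0.829 of the range for 4 livers, 0.625 for 6), where chance flags about 1 in 20 groups. Of the libraries that stand apart, female HF control replicate 1 was high for Mmp2 (20.3 CPM), Mmp8 (0.346), Mmp13 (2.77), Mmp14 (77.3) and Timp1 (1.96). Male HFCF control replicate 1 was low for Mmp2 (8.94 CPM) and Timp1 (0.980). Female LF control replicate 1 was high for Timp2 (42.4 CPM), and female HFCF labelled-knockout replicate 1 was low for Timp2 (44.2 CPM).

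The other livers were male HFCF labelled-knockout replicate 1 for Mmp8 (0.825 CPM), female HF labelled-knockout replicate 3 for Mmp8 (2.65 CPM) and male HF control replicate 6 for Mmp9 (1.16 CPM). High values were also found in male HF labelled-knockout replicate 5 for Mmp9 (1.03 CPM), female HFCF labelled-knockout replicate 2 for Mmp9 (2.19 CPM), female LF labelled-knockout replicate 1 for Mmp12 (6.12 CPM) and male HF labelled-knockout replicate 4 for Mmp13 (2.15 CPM). The interaction of diet and labelled knockout in males passed for Mmp12, with a diet difference 1.83 larger on the log2 scale in labelled knockouts.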

How the results depend on the processing

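DESeq2 size factors changed no call of a member in any comparison, and no called value changed sign under any alternative run, while 120 values that were not called in either fit did. Without the libraries that stand apart, 2 members were called in HFCF males labelled knockout against control (0 with them) and 6 in the sex by diet test of controls (0 with them). The member counts of the alternative fits in this section are given without the share of all genes called. The replicate numbers are shared between groups, but no comparison had every pair of same-numbered livers correlated over 0.1 (lowest -0.229, highest 0.34), and in none did every liver correlate best with its own number. With the replicate number as a block, 0 members were called for HFCF against HF in control females, 5 in labelled-knockout females, and 0 in the diet by labelled knockout test of males. That last count was also 0 with all 10 groups in 1 fit. The block fit adds a term for each replicate number, so fewer degrees of freedom remain for the spread. In control females the HF and HFCF livers shared 3 numbers. The cause of these shifts was not tested. With 1 library left out at a time, the members called ran from 2 to 9 for HFCF against HF in control females, 5 to 8 in labelled-knockout females and 4 to 9 in control males, from 0 to 2 for labelled knockout against control in HFCF males, from 0 to 1 for diet by labelled knockout in males and from 0 to 5 for sex by diet in controls. Mmp8, at most 54 reads a library, was too low for a test of 2 groups.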
